A study of Mus musculus with 2 samples.

Results

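Oxidative phosphorylation was followed through the transcripts of its subunits, counted in single cells from organoids of mouse intestine. Organoids are epithelial cultures grown in a gel, in which intestinal cells form a closed layer. Members were the genes whose symbol begins with mt-Nd, mt-Co, mt-Cyb or mt-Atp, with Ndufa, Ndufb, Ndufc, Ndufs or Ndufv and a digit, with Cox4 to Cox8, with Uqcr or Atp5, or with Sdha to Sdhd. The gene for cytochrome b, written mt-Cytb in the annotation, was taken as the one meant by mt-Cyb. Of 15745 genes measured, 93 were members, 80 of them nuclear and 13 mitochondrial.

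The day 5 library came from organoids whose medium held EGF, Noggin and R-spondin alone from day 3 onwards. The day 3 library came from organoids that had until then also received Wnt3a-conditioned medium at 20% and the ROCK inhibitor Y-27632 at 10 µM. Organoids of both days had 3 µM of the GSK3B inhibitor CHIR99021 during the first day, and all came from wild type C57BL/6 mice with a labelled age of 10 weeks. Each day was 1 library, so the day of culture, the medium and the library cannot be told apart, there is no test between days and there are no p-values. The day 5 library held 1065 cells and 17349076 transcript counts (unique molecular identifiers, UMIs), with a median of 13549 per cell, and the day 3 library 28764033 UMIs from 798 cells, with a median of 32063.5. Epithelial markers were high in both: Epcam, Cdh1, Krt8, Krt18 and Vil1 together had 3482 counts per 1000000 UMIs (CPM) at day 5 and 4366 CPM at day 3. The 3 immune markers with a row, of 7 listed, summed to 1.38 CPM and 1.60 CPM, and Ccl5 among them was at 0 at day 3. The 2 stromal and endothelial markers with a row, also of 7 listed, summed to 0.634 CPM at day 5 and 1.01 CPM at day 3.

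Oxidative phosphorylation passes electrons from NADH through complex I, and from succinate through complex II, to ubiquinone, and on through complex III and cytochrome c to oxygen at complex IV. Complexes I, III and IV pump protons across the inner mitochondrial membrane, and complex V, the ATP synthase, makes ATP as the protons return. Complex II is built from nuclear genes only, whereas the other complexes join nuclear subunits, imported from the cytosol, with a few core subunits made inside the mitochondrion from its own circular genome. In the intestine, the absorptive cells of the villus are known to be rich in mitochondria. The nuclear members here numbered 37 for complex I, 4 for complex II, 8 for complex III, 14 for complex IV and 17 for complex V, and the mitochondrial ones 7, 0, 1, 3 and 2. Ndufa4 is counted with complex I by its symbol, although its protein is a subunit of complex IV. Cox7a2l, counted with complex IV, helps to join complexes into supercomplexes. Cox4i2, Cox7b2, Cox8b and Cox8c are not analysed here. Several members, the Atp5g genes among them, have close copies in the genome, and how reads shared by copies were counted is not given in the sources used here.

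Sequences are shown for some of the genes that were higher at day 5. The mitochondrial gene mt-Atp8, which encodes a small subunit of the ATP synthase, overlaps mt-Atp6, which encodes the proton channel subunit, and both are read from 1 messenger RNA. In the GENCODE M21 transcripts (GRCm38, mitochondrial chromosome M, plus strand), mt-Atp8 runs from 7766 to 7969 and mt-Atp6 from 7927 to 8607. The whole 204 bases of mt-Atp8 are given, with the 43 bases shared with mt-Atp6, from 7927 to 7969, in capitals.
mt-Atp8: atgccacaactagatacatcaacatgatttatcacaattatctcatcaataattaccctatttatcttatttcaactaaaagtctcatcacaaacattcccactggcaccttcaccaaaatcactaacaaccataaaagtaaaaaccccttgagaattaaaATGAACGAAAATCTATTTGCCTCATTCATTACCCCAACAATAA

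The nuclear promoters shown are those of the member with the highest ratio of day 5 over day 3, Cox7a1, and of the 3 members higher at day 5, of 8 with a window, whose window held the core of the site of NRF1, a transcription factor known for respiratory chain genes. They are RefSeq windows on GRCm38.p6, from 250 bases before to 50 bases after the gene's start, on the gene's strand. Capitals mark GCATGCGC on either strand, which in Atp5k occurs on both strands with overlap.
Cox7a1, chr7:30183921-30184220, plus strand: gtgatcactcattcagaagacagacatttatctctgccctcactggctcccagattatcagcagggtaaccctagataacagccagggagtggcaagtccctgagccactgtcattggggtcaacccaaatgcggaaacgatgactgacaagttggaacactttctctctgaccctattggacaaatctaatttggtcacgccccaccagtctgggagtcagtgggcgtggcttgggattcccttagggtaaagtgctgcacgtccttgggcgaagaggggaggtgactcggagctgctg
Ndufa6, chr15:82354242-82354541, minus strand: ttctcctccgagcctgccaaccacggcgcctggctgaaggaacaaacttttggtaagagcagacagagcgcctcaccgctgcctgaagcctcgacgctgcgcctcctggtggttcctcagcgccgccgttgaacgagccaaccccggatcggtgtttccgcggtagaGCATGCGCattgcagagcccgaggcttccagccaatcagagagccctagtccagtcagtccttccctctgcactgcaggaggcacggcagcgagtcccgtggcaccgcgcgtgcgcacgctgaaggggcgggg
Atp5k, chr5:108434350-108434649, minus strand: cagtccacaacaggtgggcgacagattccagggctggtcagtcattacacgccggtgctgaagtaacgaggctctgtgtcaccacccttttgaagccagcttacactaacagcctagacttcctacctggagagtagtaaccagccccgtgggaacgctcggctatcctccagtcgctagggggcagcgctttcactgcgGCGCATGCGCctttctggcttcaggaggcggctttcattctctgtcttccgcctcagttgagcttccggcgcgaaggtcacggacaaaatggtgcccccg
Sdhb, chr4:140961021-140961320, plus strand: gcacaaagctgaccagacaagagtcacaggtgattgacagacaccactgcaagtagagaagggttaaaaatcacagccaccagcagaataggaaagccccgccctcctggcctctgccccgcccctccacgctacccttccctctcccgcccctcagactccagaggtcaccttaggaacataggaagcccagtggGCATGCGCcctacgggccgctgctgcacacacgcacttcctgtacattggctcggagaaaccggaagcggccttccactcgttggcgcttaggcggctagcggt

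The match on the gene's strand began 83 bases before the start in Ndufa6, 48 in Atp5k and 54 in Sdhb. In Atp5k the capitals begin earlier, with the match on the other strand. Windows were found for 66 of the 80 nuclear members, and 10 of these (15.2%) held the NRF1 core, against 5.97% of the windows of 9843 genes tested and 3.05% of those of all 27025 genes with a window. Those 10 were Atp5g2, Atp5k, Atp5l, Cox6a1, Ndufa6, Ndufa8, Ndufa11, Sdhb, Uqcr11 and Uqcrc1. The ETS core CCGGAAGT was in 5 of the 66 (7.58%), against 9.35% of the windows of genes tested. The motif TCAAGGTCA of the oestrogen-related receptors was in 2, Atp5g3 and Sdhd (3.03%), against 0.335%. The E-box CACGTG was in 6 (9.09%), against 11.7%. Each motif was searched on both strands, and the window of Cox7a1 held none of them.

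Taken over whole libraries, transcripts of both genomes took a larger share of UMIs at day 5. The 80 nuclear members summed to 4.004% of UMIs at day 5 and 3.60% at day 3, a log2 ratio of the sums of 0.15. The 13 mitochondrial genes summed to 6.64% of UMIs at day 5 and 5.38% at day 3, a log2 ratio of 0.30. In sums over a library, more cells of a state and more RNA per cell of it cannot be told apart. Per cell, the mitochondrial share had a median of 6.47% at day 5, with a range from 1.83% to 32.8%, and a median of 4.49% at day 3, with a range from 2.12% to 51.5%. The nuclear share per cell had a median of 4.13% at day 5 and 3.75% at day 3.

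Gene by gene, the nuclear members stood close to equal between the days while most other genes stood lower at day 5. A gene was called higher or lower at a ratio of CPM of at least 1.5-fold with exact Poisson 95% intervals that did not overlap, among genes with at least 10 UMIs over both libraries. The intervals, like every interval here, cover counting error only. Of the 79 nuclear members that passed the minimum, 9 were called higher and 2 lower, while over all 12782 genes tested 12.3% were called higher and 31.5% lower. The nuclear members' median log2 ratio was 0.07, with quartiles at -0.16 and 0.24, against -0.33 over all genes tested. Above 0 stood 46 of the 79, against 33.5% of all genes tested. Among the 1150 genes with a mean of at least 100 CPM, where most members lie, 16.0% were called higher, 31.9% lower, 37.0% stood above 0 and the median was -0.24. The median of all genes moved from -0.33 to -0.02 with TMM scaling, and with that scaling 18 nuclear members were called higher and 0 lower, against 18.8% and 17.1% of all genes. That scaling adds 0.31 to every log2 ratio of day 5 over day 3, so each such ratio given below between -0.31 and 0 lies above 0 with it.

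**Figure D1:**
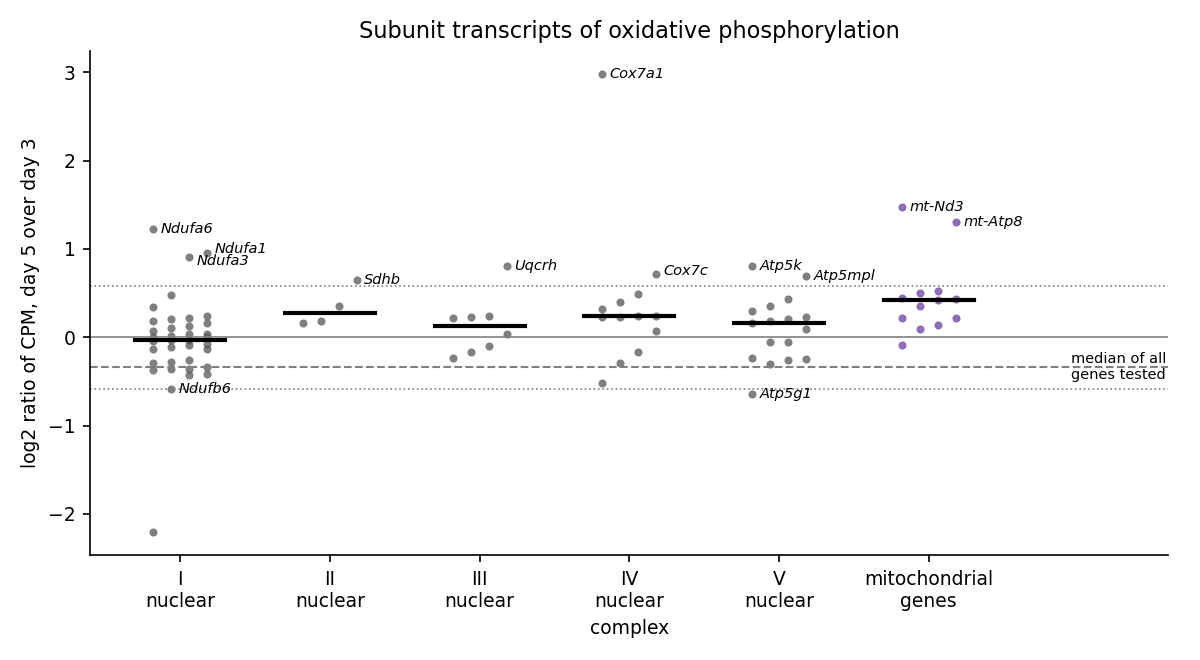
Log2 ratio of CPM, day 5 over day 3, for each member that passed the minimum of UMIs (points), with nuclear members by complex and the 13 mitochondrial genes at the right; black bars are medians, dotted lines mark 1.5-fold and the dashed line is the median of all genes tested at -0.33. Cox7a1 stands apart at 2.98, the 4 nuclear members of complex II all lie above 0, and 12 of 13 mitochondrial genes do.

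Complex I takes electrons from NADH, and its nuclear members had the lowest median log2 ratio of the complexes, -0.03, with 3 of 37 called higher, 1 lower and 17 above 0. By summed UMIs the lowest log2 ratio was that of complex V, 0.044, before complex I with 0.078. Ndufa6, an accessory subunit of the matrix arm, had 1022 CPM (1007 to 1037) at day 5, against 436 CPM (428 to 443) at day 3, giving a log2 ratio of 1.23. Ndufa1, an X-linked accessory subunit of the membrane arm, had 203 CPM at day 5 and 105 CPM at day 3 (0.96). Ndufa3, another accessory subunit, had 360 CPM at day 5 and 191 CPM at day 3 (0.91). At the other end, Ndufb6, an accessory subunit of the membrane arm, had 158 CPM at day 5 and 237 CPM at day 3, a log2 ratio of -0.59 and the one call of lower. Its ratio lay just past 1.5-fold, while Ndufb11 at 0.48 lay just short of it. Ndufa8, a subunit on the intermembrane side, had a log2 ratio of -0.43 and was not called. Ndufa4l2, a paralogue of Ndufa4 known as a hypoxia-induced gene, had 1 UMI at day 5 and 11 UMIs at day 3, and Ndufa4 itself had 642 CPM at day 5 and 825 CPM at day 3 (-0.36).

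The subfamilies of complex I had medians that were not tested against each other. The Ndufs genes, which include most of the nuclear core subunits, had a median log2 ratio of -0.21 over 8 genes. The Ndufv genes, of the NADH-binding flavoprotein module, had a median of 0.10 over 3 genes. The Ndufa and Ndufb genes, nearly all accessory subunits, had medians of 0.01 over 14 and 0.04 over 10 genes, and both Ndufc genes lay below 0, at -0.14 and -0.25. With TMM scaling both Ndufc genes and the Ndufs median lay above 0.

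Complex II, succinate dehydrogenase, had 4 of 4 members above 0 and a median of 0.27. Sdhb, its iron-sulfur subunit, had 335 CPM (327 to 344) at day 5, against 213 CPM (208 to 219) at day 3 (0.65) and was called higher. It was not called with the deeper day 5 cells, those that reach the day 3 minimum of 17601 UMIs, nor without the Enterocyte-like clusters described below. The membrane anchor Sdhc had 173 CPM at day 5 and 135 CPM at day 3 (0.36). The catalytic flavoprotein Sdha stood at 0.19 and the other anchor, Sdhd, at 0.16.

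Complex III, which hands electrons from ubiquinol to cytochrome c, had a median of 0.13 over 8 members. Uqcrh, the hinge protein that binds cytochrome c1, had 1511 CPM (1493 to 1530) at day 5, against 865 CPM (854 to 876) at day 3, giving a log2 ratio of 0.80. The small subunit Uqcr11 (0.24) and the core protein Uqcrc2 (0.23) followed, neither past 1.5-fold. Uqcrb, which binds ubiquinone, stood lowest at -0.24, before the Rieske iron-sulfur protein Uqcrfs1 (-0.16) and Uqcr10 (-0.10).

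Complex IV, cytochrome c oxidase, held the member with the largest difference. Cox7a1, the form of subunit VIIa known from heart and skeletal muscle, had 75.5 CPM (71.5 to 79.7) at day 5, against 9.53 CPM (8.43 to 10.7) at day 3, which is 7.92-fold, from 1310 UMIs at day 5 and 274 at day 3. The 10 day 5 cells with most of its UMIs held 8.24% of them. Its widely expressed paralogue Cox7a2 was not called, with 746 CPM at day 5 and 836 CPM at day 3 (-0.16, above 0 with TMM scaling). Cox7a2l had 696 CPM at day 5 and 495 CPM at day 3 (0.49), just short of 1.5-fold. Per the annotation Cox7a1 is a protein-coding gene on chromosome 7 from 30184144 to 30186078 (GRCm38, plus strand).

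Among the other subunits of complex IV, Cox7c had 2295 CPM at day 5 and 1393 CPM at day 3 (0.72) and was called higher. Cox6c stood at 0.40, Cox4i1, the usual form of the regulatory subunit IV, at 0.32, and Cox6a1, Cox6b1, Cox7b and Cox8a between 0.23 and 0.24. Cox5a, a nuclear subunit close to the catalytic core, was lowest with 521 CPM at day 5 and 747 CPM at day 3 (-0.52), just short of 1.5-fold. The testis form Cox6b2 had 4.67 CPM at day 5 and 5.74 CPM at day 3, with intervals that overlap. Cox6a2, the muscle form of subunit VIa, had 0 UMIs at day 5 and 9 at day 3, under the minimum, and a count of 0 allows up to 3 UMIs as a one-sided 95% limit.

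Complex V had a median of 0.16 over 17 members. Atp5k, subunit e of the membrane part, had 493 CPM (483 to 504) at day 5, against 282 CPM (276 to 288) at day 3 (0.81). Atp5mpl, a small proteolipid of the synthase, had 829 CPM at day 5 and 512 CPM at day 3 (0.70). Atp5e, the epsilon subunit of the rotor stalk, stood at 0.43. Atp5g1, Atp5g2 and Atp5g3 encode the same mature c subunit of the rotor ring. Atp5g1 had 733 CPM (720 to 746) at day 5, against 1143 CPM (1130 to 1155) at day 3 (-0.64) and was called lower. Atp5g2 stood at -0.26 and Atp5g3 at -0.05, values that lie above 0 with TMM scaling. With that scaling neither Atp5g1 nor Ndufb6 was called lower. Atp5f1, the b subunit of the peripheral stalk, stood at -0.31, and the catalytic subunits Atp5a1 and Atp5b at -0.05 and -0.24.

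**Figure D2:**
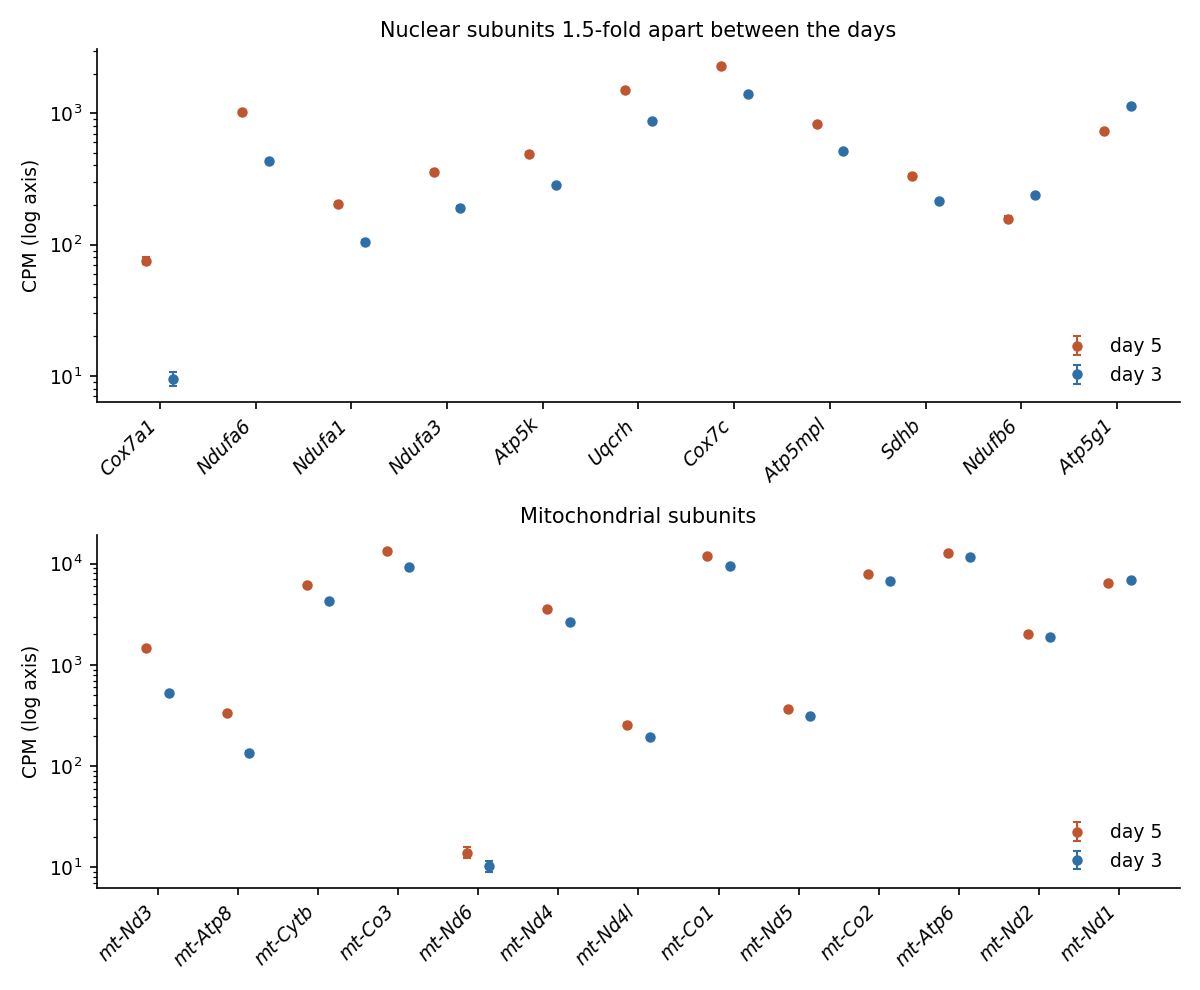
CPM on a log axis at day 5 (left point of each pair) and day 3 (right point), with exact Poisson 95% intervals, which are mostly smaller than the points; the upper panel holds the 11 nuclear members called higher or lower and the lower panel the 13 mitochondrial genes. Cox7a1 has the widest gap of the upper panel, at 75.5 and 9.53 CPM, and mt-Nd3 that of the lower one, at 1461 and 527 CPM.

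All mitochondrial messenger RNAs but that of mt-Nd6 are cut from 1 long transcript of the circular genome's plus strand in this annotation. They nevertheless did not differ by the same amount between the days. mt-Nd3, a membrane subunit of complex I, had 1461 CPM (1443 to 1479) at day 5, against 527 CPM (519 to 536) at day 3, giving a log2 ratio of 1.47. mt-Atp8 had 335 CPM (327 to 344) at day 5, against 136 CPM (132 to 140) at day 3, which is 2.47-fold. These were the 2 of 13 called higher, and 0 were called lower.

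The core subunits of the later complexes came next. mt-Cytb, the catalytic core of complex III, had 6116 CPM at day 5 and 4259 CPM at day 3 (0.52). In complex IV, mt-Co3 had 13211 CPM at day 5 and 9302 CPM at day 3 (0.51), the catalytic subunit mt-Co1 had 12027 CPM and 9405 CPM (0.35), and mt-Co2, which takes the electron from cytochrome c, stood at 0.21. Of complex I, mt-Nd4 and mt-Nd4l stood at 0.43 and 0.42, mt-Nd5 at 0.22 and mt-Nd2 at 0.09. mt-Nd6, the member on the other strand, had 243 UMIs at day 5 and 295 at day 3 (0.45). mt-Nd1 was the one gene below 0, with 6456 CPM at day 5 and 6837 CPM at day 3 (-0.08), and lay above 0 with TMM scaling. The median of the 13 was 0.42, and it was 0.35 without mt-Nd3 and mt-Atp8.

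Neighbours on the mitochondrial genome were set side by side, since they share transcripts. Per 100 UMIs of mt-Atp6, mt-Atp8 had 2.63 UMIs at day 5 and 1.18 at day 3. This ratio lay between 2.32 and 2.95 in the 6 day 5 clusters described below and between 1.01 and 1.35 in the 6 day 3 clusters. The cluster values of the days thus did not overlap, but the clusters of a day share 1 library and are not replicates. Per 100 UMIs of mt-Co3, mt-Nd3 had 11.1 UMIs at day 5, with clusters from 10.6 to 12.5, and 5.67 at day 3, with clusters from 4.16 to 6.47. mt-Nd4l and mt-Nd4, which share 7 bases and 1 messenger RNA, showed no such step: mt-Nd4l had 7.26 UMIs per 100 of mt-Nd4 at day 5 and 7.35 at day 3. How the authors' counting treated reads in shared bases is not given in the sources used here, and its part in these ratios was not tested.

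Transcript length moved with the ratios. Of the 9 nuclear members called higher, all but Sdhb had a median annotated transcript length under 600 bases. Of 30 nuclear members under 600 bases 8 were called higher (26.7%), and of 49 longer ones 1 was (2.04%). Among other genes with a mean of at least 100 CPM, 28 of 112 short ones (25%) and 133 of 934 longer ones (14.2%) were called higher. Their median log2 ratios were 0.05 and -0.38. Short members were thus called higher at about the share of other short genes. Across the 79 nuclear members Spearman's rho of length and log2 ratio was -0.29, and across 1046 other genes it was -0.14; genes share libraries and are not independent. mt-Atp8 with 204 bases and mt-Nd3 with 348 bases are short as well, but so is mt-Nd4l with 297 bases, at 0.42. The part of length in these differences was not tested.

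Cell states were taken from clusters built without any member, so that the members do not define them. Of 11 clusters, 10 had at least 95% of their cells from 1 library, and each cluster is described for a library where it held at least 30 of its cells. Of day 5, cluster 3 (209 cells) was led by Ggt1, Bst1, the peptide transporter gene Slc15a1 and Apoa4 and stayed unnamed, with 2 enterocyte markers among its 25 leading genes. In clusterings at resolution 0.5, or with the members kept, the cluster led by Ggt1 was Enterocyte-like, and at resolution 2 it was unnamed. Clusters 4 and 6 (210 and 182 cells) were Enterocyte-like. Where the Enterocyte-like clusters are left out, these are meant, and cluster 3 is kept. Cluster 1 (225 cells), led by Defb37, Sycn and Ttr, and cluster 5 (183 cells), led by Mxd3 and histone genes, stayed unnamed. Of day 3, cluster 9 (122 cells) was Stem-like and cluster 7 (176 cells) Proliferating-like. Cluster 2 (215 cells) was led by Ccne2, Ccne1 and Cdc6, cluster 8 (127 cells) by Hmox1, Adm2 and Ero1l, and cluster 10 (100 cells) by Wnt10a, Mcam and Sprr1a. With the members kept, a day 3 cluster that shared the leading genes Cwh43, Krt4, Slc4a11 and Wincr1 with cluster 10 was Regenerative-like. Cluster 11, with markers of more than 1 secretory type, held 45 cells of day 5 and 55 of day 3.

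At day 5 the mitochondrial share was highest in cluster 3 and lowest in the secretory cluster. Mitochondrial genes made up 10.8% of UMIs in cluster 3, 7.73% and 6.67% in the Enterocyte-like clusters 6 and 4, 5.54% in cluster 1, 5.48% in cluster 5 and 4.96% in cluster 11. Nuclear members followed the same order with smaller gaps: 4.63% in cluster 3, 4.54% and 4.18% in clusters 6 and 4, 3.81% in cluster 1, 3.70% in cluster 5 and 2.97% in cluster 11. The highest cluster was thus 2.18 times the lowest for the mitochondrial and 1.56 times for the nuclear share. Counting intervals of these clusters did not overlap in either share, but single cells varied far more: the quartiles of the mitochondrial share were 9.41% and 12.2% in cluster 3 and 6.81% and 8.605% in cluster 6.

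Depth and the share of ribosomal protein genes moved with these shares. Cluster 3 had the lowest median of UMIs per cell, 9479 against 11886.5 to 21167 in the other day 5 clusters. Genes of cytosolic ribosomal proteins held 23.7% of its UMIs, against 34.4% to 44.3% in the others. With mitochondrial and ribosomal protein UMIs left out of the total, the nuclear share of cluster 3 was 7.07%, below the 8.03% of cluster 4, 7.85% of cluster 6, 7.59% of cluster 1 and 7.22% of cluster 5. On that scale its mitochondrial share, 16.5 per 100 of the remaining UMIs, was still the highest, against 8.89 to 13.4. The nuclear order at day 5 thus depended on the total chosen, and the mitochondrial lead of cluster 3 did not under these totals.

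At day 3 the cluster highest in mitochondrial share was the lowest in nuclear share. Cluster 10 had the highest mitochondrial share, 7.51%, and the lowest nuclear share, 2.77%. Cluster 8 was next in mitochondrial share with 6.21% and highest in nuclear share with 3.99%. The Proliferating-like and Stem-like clusters 7 and 9 had 4.53% each for the mitochondrial and 3.85% and 3.83% for the nuclear share, with intervals that overlap in both, cluster 2 had 5.09% and 3.58%, and the secretory cluster 11 had 4.60% and 3.39%. Mitochondrial UMIs per nuclear member UMI were 2.71 in cluster 10 and 1.17 to 1.56 in the other day 3 clusters. With clusters at resolution 0.5, the cluster led by Hmox1 and Adm2 was highest in both shares, at 6.21% and 3.99%. The day 3 cluster lowest in nuclear share there, at 3.29%, had 5.949% mitochondrial UMIs. At day 5 the ratio of mitochondrial to nuclear UMIs was 2.34 in cluster 3 and 1.45 to 1.70 in the others.

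**Figure D3:**
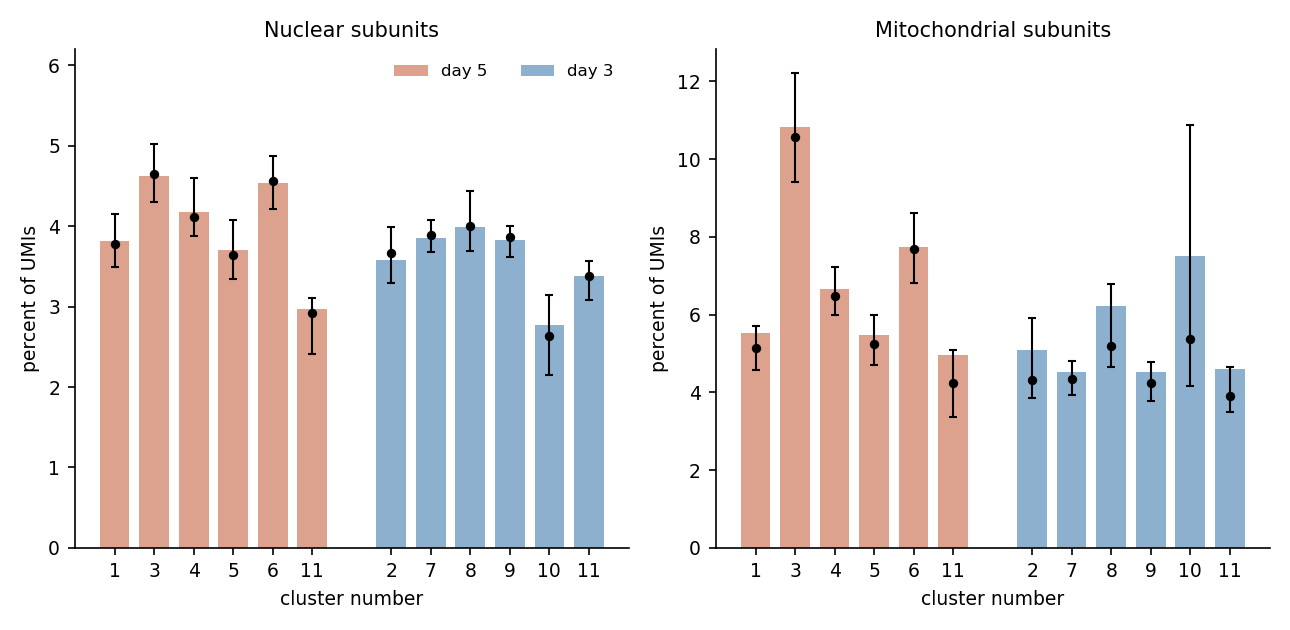
Percent of UMIs in nuclear members (left panel) and mitochondrial genes (right panel) by cluster, day 5 clusters first; bars are summed UMIs, points and whiskers the median and quartiles over cells. Cluster 3 leads both panels among day 5 clusters, at 4.63% and 10.8%, and cluster 10 of day 3 has the lowest nuclear share, 2.77%, with a wide spread of mitochondrial shares.

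In cluster 11, the one cluster with over 30 cells of each day, the nuclear share was 2.97% at day 5 and 3.39% at day 3, opposite to the whole libraries. Its mitochondrial share was 4.96% at day 5 and 4.60% at day 3. Within it mt-Nd3 had 1246 CPM at day 5 and 508 CPM at day 3, and Ndufa6 had 623 CPM and 416 CPM. At resolution 2, a Goblet-like cluster held 22 cells of day 5 and 46 of day 3, and an Enteroendocrine-like one 5 and 8. A mixed secretory cluster there, with several Defa genes among its leading genes, held 18 cells of day 5 and 0 of day 3. The makeup of the secretory cells by type thus differed between the days, and its part in these values was not tested.

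Several members set the days apart whichever cluster was taken. Of the 79 nuclear members tested, 6 had every day 5 cluster above every day 3 cluster, namely Atp5e, Atp5k, Atp5mpl, Ndufa1, Ndufa3 and Uqcrh, against 2.82% of all genes tested. None of the members tested had every day 5 cluster below every day 3 cluster, against 9.83% of all genes tested. Ndufa3, for example, lay between 274 and 480 CPM in day 5 clusters and between 148 and 204 CPM in day 3 clusters. mt-Nd3 (1237 to 2239 CPM at day 5, 468 to 600 CPM at day 3) and mt-Atp8 (268 to 460 CPM at day 5, 116 to 172 CPM at day 3) did so among the 13 mitochondrial genes. All 8 genes have a transcript length under 600 bases. Clusters of 1 library are not replicates of a day.

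Cox7a1 and Ndufa6 instead varied with cell state. Cox7a1 had 252 CPM (231 to 274) in cluster 3, 122 CPM in cluster 6, 89.5 CPM in cluster 4 and 16.9 to 23.8 CPM in the other day 5 clusters. At day 3 it had 40.6 CPM (34.5 to 47.5) in cluster 8, from 156 UMIs, and 1.18 to 7.08 CPM elsewhere, the lowest being cluster 10 with 5 UMIs. The day 3 cluster 8 thus lay above day 5 clusters 1, 5 and 11. Ndufa6 had 1729 CPM in cluster 3, 1663 CPM in cluster 6 and 1250 CPM in cluster 4, against 569 to 721 CPM in the other day 5 clusters. At day 3 it too was highest in cluster 8, with 729 CPM, and lowest in cluster 10, with 284 CPM. With clusters 3, 4 and 6 left out of both libraries, Cox7a1 was still called higher at day 5 and Ndufa6 was not. The log2 ratio of Cox7a1 was then 1.16, and it was 1.81 with the deeper day 5 cells.

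**Figure D4:**
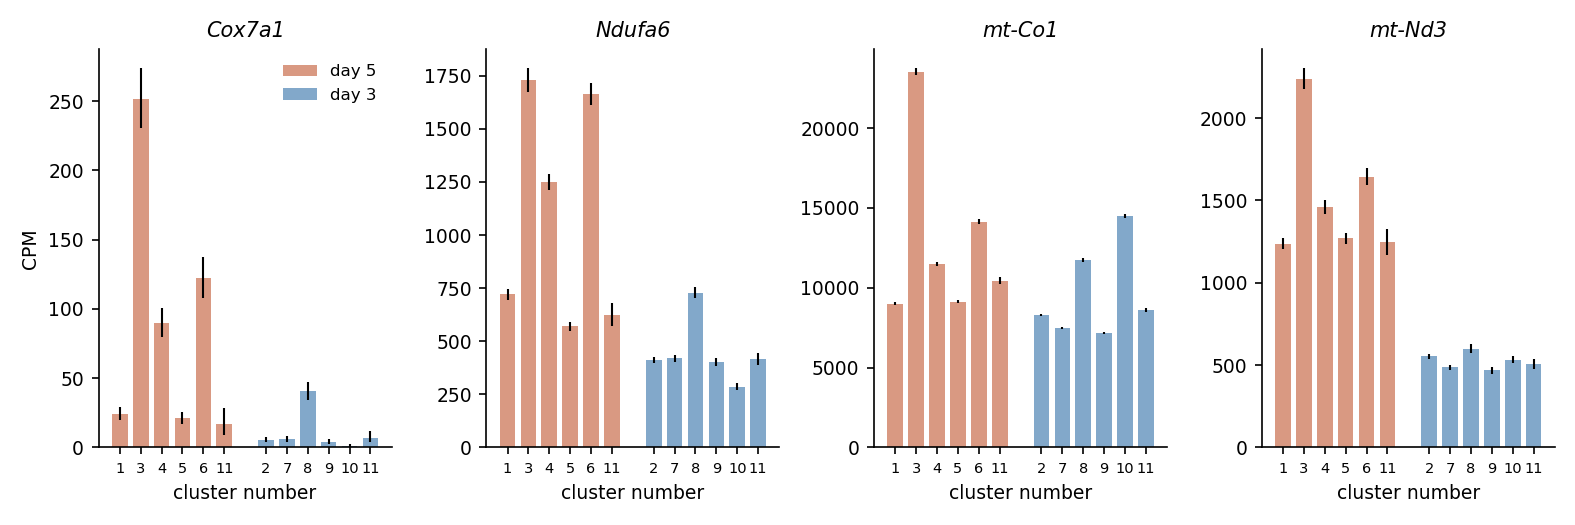
CPM of Cox7a1, Ndufa6, mt-Co1 and mt-Nd3 by cluster, day 5 clusters first, with exact Poisson 95% intervals. Cox7a1 and Ndufa6 peak in clusters 3, 6 and 4 at day 5 and in cluster 8 at day 3, mt-Co1 peaks in clusters 3 and 10, and every day 5 bar of mt-Nd3 is above every day 3 bar.

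Set against all other day 5 cells, cluster 3 was mixed in nuclear members. It was taken for the highest mitochondrial share of its day, so high mitochondrial genes follow from that choice. Of 13 mitochondrial genes, 11 were called higher and 0 lower, with a median log2 ratio of 0.76. Over all 11536 genes tested there, 18.9% were called higher and 20.4% lower. The highest was mt-Co1, with 23553 CPM in cluster 3 and 10414 CPM in the other day 5 cells (1.18). Of 78 nuclear members, 8 were called higher and 7 lower, with a median of 0.06. Those higher were Cox7a1 (2.31), Ndufa6 (0.91), Ndufa1 (0.89), Uqcrq (0.79), Uqcrh (0.77), Atp5g3 (0.72), Cox7c (0.59) and Ndufv3 (0.59). Of the 7 lower ones 6 belong to complex I by symbol: Ndufc2 (-1.01), Ndufs4 (-0.74), Ndufs8 (-0.73), Ndufa9 (-0.69), Ndufa4 (-0.67) and Ndufb8 (-0.62). The other was Cox6b2, with 1 UMI in cluster 3. Complex I holds 36 of the 78 members by symbol, and 6 of 36 is a smaller share than the 20.4% of all genes called lower. Ndufc2, an accessory subunit of the membrane arm, had 140 CPM in cluster 3 and 282 CPM in the other day 5 cells. By complex, the medians were -0.13 for complex I, 0.14 for II, 0.12 for III, 0.30 for IV and 0.11 for V. With mitochondrial and ribosomal protein UMIs left out of the total, 2 nuclear members were called higher and 21 lower, against 1383 and 3386 of all 11536 genes. Of the mitochondrial genes 1 was then called higher in place of 11, and 13 of 13 stayed above 0 with a median of 0.44.

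Set against all other day 3 cells, cluster 10 was low in nuclear members nearly throughout. This cluster too was taken for the highest mitochondrial share of its day. Of 79 nuclear members, 25 were called lower and 1 higher, with a median of -0.49, and 2 of 79 stood above 0. Over all 12143 genes tested there, 6.59% were called lower and 19.6% higher. All 37 nuclear members of complex I lay below 0, with a median of -0.50, and so did those of complexes III and V. Atp5g1 had 717 CPM in cluster 10 and 1216 CPM in the other day 3 cells (-0.76), and Ndufs7, an iron-sulfur subunit of complex I, had 131 CPM and 232 CPM (-0.83). The one called higher was Cox6b2, with 15.4 CPM from 65 UMIs in cluster 10 and 4.08 CPM in the other day 3 cells. Of the mitochondrial genes, mt-Co1 (0.77), mt-Atp6 (0.69) and mt-Nd4l (0.63) were called higher, 3 of 13 and so near the share over all genes. All 13 lay above 0, as did 7368 of all 12143 genes, with medians of 0.48 and 0.17.

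**Figure D5:**
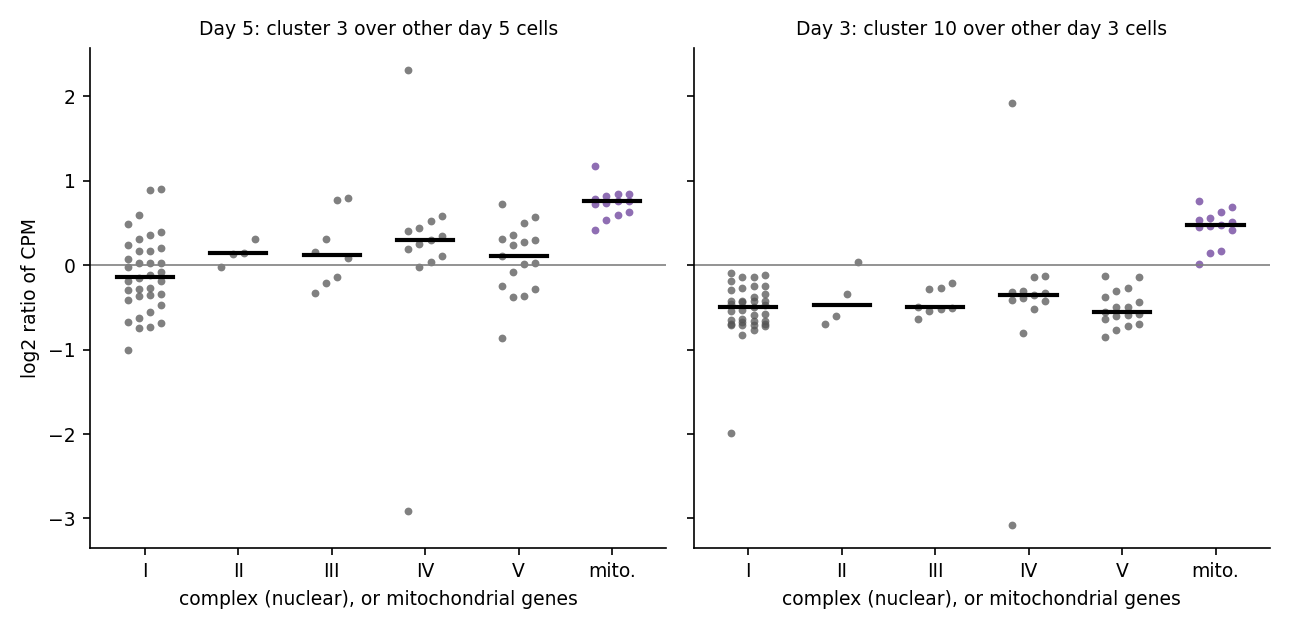
Log2 ratio of CPM for each member, cluster 3 over the other day 5 cells (left) and cluster 10 over the other day 3 cells (right); nuclear members stand by complex, mitochondrial genes at the right of each panel and black bars are medians. Each cluster was taken for the highest mitochondrial share of its day. Mitochondrial genes have medians of 0.76 and 0.48, while nuclear members lie on both sides of 0 on the left and nearly all below 0 on the right.

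Cells with a high mitochondrial share were unevenly spread. Over 10% of UMIs were mitochondrial in 169 of 1065 day 5 cells, of which 135 were in cluster 3, and in 58 of 798 day 3 cells, of which 26 were in cluster 10. Without those cells, 74 remained in each cluster. Cluster 3 then had 2 of 13 mitochondrial genes called higher, near the share over all genes, where 1536 of 11408 were. Still 13 of 13 stood above 0, with a median of 0.50, against 5289 of all genes and a median of -0.10. Cluster 10 had 0 of 13 called either way, and a median of 0.00. The nuclear members of cluster 10 kept a median of -0.41, with 15 of 79 called lower. Of all 12008 genes tested there, 784 were called lower, with a median of 0.06. In cluster 10 the cells over 10% had a median of 25106 UMIs, against 44996 in the rest, and nuclear members took 2.50% of their other UMIs, against 3.08%. In cluster 3 these medians were 9153 and 10449 UMIs, and the nuclear shares 5.24% and 5.12%. High mitochondrial shares with few UMIs are a common sign of damaged cells, whose part here was not tested.

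Cell by cell, both shares went together at day 5 and apart at day 3. Across 1065 day 5 cells, the mitochondrial and nuclear shares had Pearson's r of 0.33 and Spearman's rho of 0.51. Across 798 day 3 cells, r was -0.47 and rho -0.17. The mitochondrial share and the UMIs per cell had rho of -0.57 at day 5 and -0.10 at day 3. Both shares have the same total, and cells of a library share its depth.

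Across members, mitochondrial genes mostly shared the cluster of their highest level, while nuclear ones mostly shared that of their lowest. Among members with at least 100 UMIs, 13 of 13 mitochondrial genes were highest in cluster 3 at day 5, and 10 of 13 in cluster 10 at day 3. Each of these clusters has the highest summed mitochondrial share of its day, so these counts follow in part from the sums. Of 77 nuclear members at day 5, 26 were highest in cluster 3, 19 in cluster 1, 15 each in clusters 5 and 6 and 2 in cluster 4, while 57 were lowest in cluster 11. Of 78 at day 3, 36 were highest in cluster 8, 21 in cluster 9 and 19 in cluster 7, while 69 were lowest in cluster 10. The same counts were not made over all genes, so these have no background beside them. The nuclear order at day 5 also depended on the total chosen, as given above. The ratio of the highest over the lowest cluster had a median of 1.67 for nuclear and 2.08 for mitochondrial members at day 5, and of 1.56 and 1.61 at day 3. After Cox7a1 (14.9) and Ndufa6 (3.04), the largest at day 5 were those of mt-Co1 (2.62), mt-Nd1 (2.59) and Atp5s (2.58), a factor named for its coupling role in the synthase, with 211 UMIs.

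Over whole libraries at 1.5-fold, before TMM scaling, the lists of mitochondrial ribosome and RNA handling genes had more calls of lower than all genes. Of 78 tested genes of the mitochondrial ribosome, which makes the 13 mitochondrial proteins, 0 were called higher and 42 lower, with a median of -0.60, and Mrpl20 had 97.6 CPM at day 5 and 235 CPM at day 3 (-1.26), Mrpl3 stood at -1.17, Mrpl24 at 0.36 and Mrpl23 at 0.27. Of 15 genes of mitochondrial RNA handling, 0 were higher and 10 lower, with a median of -0.72, from Fastkd5 (-1.07) and Fastkd2 (-0.98), RNA-binding proteins of the matrix, to Slirp (-0.17) and Hsd17b10 (0.13). With TMM scaling these calls of lower numbered 10 of 78 and 4 of 15. The first lies below and the second above the 17.1% of all genes then called lower. In day 5 cluster 3, mitochondrial ribosome genes held 0.456% of UMIs, the lowest of the day, against 0.502% to 0.744%. The background for these lists and those that follow is that of all genes tested, 12.3% higher and 31.5% lower with a median of -0.33 before that scaling.

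Assembly factors, which help to build the complexes and do not stay in them, had medians below 0 with few calls. Complex I factors had 0 higher and 2 lower of 15 (median -0.25), with Ndufaf4 at 28.6 CPM at day 5 and 85.8 CPM at day 3 (-1.58), Ndufaf5 at -0.82, Ndufaf3 at -0.01 and Tmem126b at 0.15. Complex II factors had 0 and 1 of 4 (-0.23), with Sdhaf1 at -0.91, Sdhaf2 at -0.53, Sdhaf3 at 0.07 and Sdhaf4 at 0.16. Complex III factors had 0 and 1 of 6 (-0.16), with Uqcc2 at 79.9 CPM and 170 CPM (-1.09), Bcs1l at -0.29, Ttc19 at -0.04 and Uqcc3 at 0.22. Complex IV factors had 2 and 4 of 21 (-0.22): Cox16 was called higher with 51.8 CPM at day 5 and 18.3 CPM at day 3, and Pet100 stood at 0.87, while Cox18 and Cmc2 stood at -0.96 and -0.91. Complex V factors had 0 and 0 of 4 (-0.33), from Atpaf2 (-0.58) and Tmem70 (-0.51) to Atpaf1 (-0.15) and Fmc1 (0.20). The medians of the factors of complexes I to IV lay above 0 with TMM scaling, between 0.066 and 0.16.

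Genes that copy and transcribe mitochondrial DNA had 2 of 16 higher and 3 lower, with a median of -0.29. Polg, the catalytic subunit of the DNA polymerase, had 11.6 CPM at day 5 and 23.5 CPM at day 3 (-1.01), while its accessory subunit Polg2 had 12.8 CPM and 5.30 CPM (1.26). Polrmt, the RNA polymerase, stood at -0.83, and the termination factor family member Mterf2 at 1.26. Of 11 nuclear regulators, 1 was higher and 6 lower, with a median of -0.68. Ppargc1a, a coactivator known to promote mitochondrial biogenesis, had 13.4 CPM at day 5 and 6.40 CPM at day 3 (1.06), and Ppargc1b stood at 0.14. Their relative Pprc1 had 4.73 CPM at day 5 and 20.4 CPM at day 3 (-2.11), and the host cell factor Hcfc1 stood at -1.41. Nrf1, whose site is marked in the promoters above, stood at -0.95.

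The citrate cycle, which feeds electrons to complexes I and II, had 1 of 18 genes higher and 2 lower, with a median of -0.10. Ogdh had 103 CPM at day 5 and 67.9 CPM at day 3 (0.60), Sucla2 stood at 0.32, Idh3a at -0.89 and the anaplerotic carboxylase Pcx at -1.18. Of 25 electron carriers and exchange proteins, 4 were higher and 7 lower, with a median of -0.33. Coq8a, of ubiquinone synthesis, had 41.8 CPM at day 5 and 11.5 CPM at day 3 (1.86) and is also among the leading genes of cluster 1. Ucp2, an inner membrane carrier, stood at 0.75. The ADP/ATP carrier Slc25a4 had 42.8 CPM at day 5 and 167 CPM at day 3 (-1.96), and Coq3 stood at -0.91. Cytochrome c itself, from Cycs, stood at -0.88.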

How the data were processed

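Single cells were profiled with droplet 3-prime RNA sequencing of polyA RNA, 1 library per day. The authors deposited UMI counts per gene and cell, made with Cell Ranger 1.3.0 on mm10 per the submitters' processing notes, and log2 values of the same cells, used here only as an alternative. Which filters chose these genes and cells is not stated in the labels. The prefix of each column gave its day; columns carry numbers and no barcodes, so barcodes shared by the libraries could not be counted. Symbols came from GENCODE M21 (GRCm38) and a table of gene names for 15690 of 15745 IDs.

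Counts were summed per library or cluster and given as CPM, UMIs per 1000000. Exact Poisson 95% intervals cover counting error only. Log2 ratios had 0.5 UMI added to each sum. Genes with at least 10 UMIs were called past 1.5-fold with intervals apart. edgeR 4.0.16 gave TMM factors for an alternative and no test. The ratio and its call were tested on simulated data. UMIs in genes with no symbol were 0.00768% of all. Cells were scaled to 10000 UMIs and clustered with scanpy 1.11.5 and igraph 0.11.9 (2000 variable genes, 30 components, 15 neighbours, Leiden resolution 1) without the members. Doublets were neither called nor removed. A cluster was X-like with at least 3 fixed markers among its 25 leading genes. Python 3.11.15, numpy 2.4.6, pandas 2.3.3, scipy 1.17.1 and matplotlib 3.10.9 were used.

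Members and lists were chosen with earlier results of these data known. Genes named are all mitochondrial members; per complex the nuclear members at either end of the ratios, 3 each; every nuclear member called; sets of paralogues; the 2 highest and 2 lowest of each list; and the 5 members that vary most across day 5 clusters. Others named (Atp5a1, Atp5b, Cox6c and Ndufb11 among them, Nrf1, Cycs, and those of the cluster contrasts) were chosen after their values were seen, as were the epithelial markers, the contrasts of clusters 3 and 10, the split by length and the comparison of neighbouring genes.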

Additional observations from a re-analysis of the deposited data

How the results depend on the processing

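All 117 values of the 13 members called, under the 9 alternatives that can move a ratio, had the sign they have in the report, while calls changed. TMM factors and the reduced totals shift every log2 ratio alike, by at most 0.31. That is less than 1.5-fold, so no member called could change sign under them. With 1 library per day there was no replicate to leave out. No paired analysis was possible because each day has 1 library. Leaving out clusters 3, 4 and 6 was chosen after seeing the data. The cause of each change was not tested. The depth of the smaller day 5 cells limits genes of few UMIs.

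The nuclear median log2 ratio, 0.07 in the report, was 0.38 with TMM factors, 0.17 without mitochondrial and ribosomal protein UMIs in the total, 0.030 with the 320 day 5 cells that reach the day 3 minimum of 17601 UMIs, 0.024 without clusters 3, 4 and 6, 0.11 with every cell weighed alike and 0.0031 in the authors' log2 values. The mitochondrial median, 0.42, was 0.73, 0.52, 0.19 and 0.15 under the first 4 of these, and 0.49 without the tenth of cells with most mitochondrial UMIs. Nuclear members higher, 9, numbered 18 with TMM, 6 with the deeper cells, 5 without clusters 3, 4 and 6 and 2 at 2-fold. Of all genes tested, 18.8%, 8.7%, 8.12% and 8.3% were called higher in that order, against 12.3% in the report. Of the 9, Atp5mpl, Cox7c, Sdhb and Uqcrh lost their call with the deeper cells, those and Ndufa6 without clusters 3, 4 and 6, and Sdhb without the Enterocyte-like clusters. Atp5s was newly higher in the first 2 of these. Members lower, 2, numbered 0 with TMM, without mitochondrial and ribosomal protein UMIs and at 2-fold, and 1 without mitochondrial UMIs alone, with the deeper cells, without the Enterocyte-like clusters and without clusters 3, 4 and 6. In the last 3 of these the one lower was Cox5a. Between 15.3% and 30.5% of all genes were called lower under the settings named for members lower. Mitochondrial genes higher, 2, numbered 8 with TMM and 4 both without mitochondrial and ribosomal protein UMIs and without the tenth of cells with most mitochondrial UMIs. Of all genes, 18.8%, 14.2% and 12.2% were then called higher in that order.

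Mitochondrial ribosome genes lower, 42, numbered 10 with TMM, 25 with the deeper cells, 23 without the Enterocyte-like clusters, 11 without clusters 3, 4 and 6 and 6 at 2-fold. Mitochondrial RNA handling genes lower, 10, numbered 4, 4, 5, 2 and 1 in the same order. Of all genes tested, 17.1%, 23%, 23.2%, 21.2% and 15.3% were called lower in that order, against 31.5% in the report. Without clusters 3, 4 and 6, and at 2-fold, both lists thus had a smaller share called lower than all genes. Medians that turned sign with TMM were those of complex I (0.29), of the assembly factors of complexes I (0.066), II (0.082), III (0.16) and IV (0.091), of DNA copying and transcription (0.021) and of the citrate cycle (0.21). Without mitochondrial and ribosomal protein UMIs, complex I (0.075) and the citrate cycle (0.0043) turned. The citrate cycle also turned without the Enterocyte-like clusters (0.0080). Without clusters 3, 4 and 6, the medians of complex V (-0.058), complex I factors (0.029), complex III factors (0.073) and DNA copying (0.12) turned, and complex V also turned with the deeper cells (-0.049).

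The highest over the lowest cluster at day 5 was 1.56 for the nuclear share, and 1.60 with members kept for clustering, 1.31 at resolution 2, 1.59 over cell medians, 1.66 without mitochondrial UMIs and 1.51 without those and ribosomal protein UMIs. For the mitochondrial share it was 2.18, and 2.09 with members kept, 2.11 at resolution 0.5, 2.05 at resolution 2, 2.49 over medians, 2.33 and 1.86 with the reduced totals. At day 3 the nuclear value was 1.44, and 1.39, 1.21, 1.63, 1.52, 1.42 and 1.53 under those 6 settings in that order, and the mitochondrial value was 1.66, and 1.48, 1.37, 2.19, 1.37, 1.71 and 1.63.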
